A study of Mus musculus with 24 samples.

Results

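The genes described here encode non-collagen proteins of the extracellular matrix and the enzymes and chaperones that fold, hydroxylate, trim, and cross-link collagen. They were a named list of 38 genes, matched by gene symbol, out of 56941 genes in the expression tables. Of these, 32 passed the filter on low counts that was applied to all genes and left 13318 genes to test. The bulk RNA-seq data came from sheets of mouse muscle grown on grooved fibrin gels from C2C12, a myoblast line that fuses into contractile fibers. All 4 groups carried the genotype ChR2::tdTomato, a blue light-gated channel joined to a red fluorescent protein, so that a light pulse triggered a twitch. The groups were an unstimulated control and tissues lit for 30 min each day at 1, 4, or 10 Hz, with 6 libraries each and 24 in total, and RNA was taken after roughly 2 weeks of training. The study called the 6 tissues of a group biological replicates, yet all came from 1 engineered line, so p-values measure the spread between wells of that line. The control tissues also twitched spontaneously, and a monolayer of 1 cell line lacks the connective tissue, vessels, and nerves of a muscle. The comparisons asked whether training frequency altered transcription, and those against control shared the same 6 control libraries.

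In skeletal muscle, each fiber is wrapped in a basement membrane of laminin and collagen IV joined by nidogens and perlecan, and outside it lies a mesh of fibrillar collagen, fibronectin, proteoglycans, and elastic microfibrils. Matricellular proteins such as SPARC, the thrombospondins, tenascin-C, and periostin do little to hold the mesh up and mainly tune how cells attach to it and signal through it. New collagen chains are hydroxylated and folded in the endoplasmic reticulum, trimmed after secretion, and then cross-linked by enzymes of the lysyl oxidase family.

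The total count per library ranged from 4.09 to 15.2 M reads. Traces of 6 non-polyadenylated small RNAs, which poly(A) selection should remove, made up 45.1 to 88.8 CPM (counts scaled to a library of 1 M) of the library total in control, 5.73 to 30.0 at 1 Hz, 8.48 to 22.7 at 4 Hz, and 21.5 to 167 at 10 Hz. The control range did not overlap those of 1 and 4 Hz. The 6 RNAs were picked by name and by being counted in every control library, however. That choice can raise the control values relative to the other groups. Per the labels, low-input material was ribodepleted, without naming the samples. Whether library preparation differed between the groups is thus not known. The summed level of 16 muscle fiber markers, in TPM (transcript abundance scaled for length and to a fixed sum per library), was 11160 to 13611 in control, 16362 to 20822 at 1 Hz, 16573 to 23646 at 4 Hz, and 10804 to 17139 at 10 Hz. Of these 16 markers, 14 were called higher at 1 Hz, 14 at 4 Hz, and 2 at 10 Hz, all in edgeR. Of 9 fibroblast-like markers, 5 could be tested, and the sum of the list had medians of 611, 600, 415, and 569 TPM in control, 1, 4, and 10 Hz. Ly6a, at a mean of 528 TPM, made up nearly all of that sum and was not called. At both 1 and 4 Hz, 2 of the 5 were called higher (Pdgfrb at 1.38 and 1.81, Pi16 at 1.17 and 1.37 on the log2 scale) and 1 lower (Cd248 at -0.73 and -1.16). The 12 markers of mononucleated myoblasts or reserve cells summed to medians of 122, 163, 153, and 129.6 TPM. Of these 12, 2 were called higher and 0 lower at 1 Hz, 4 and 1 at 4 Hz, and 0 and 0 at 10 Hz. Pax7, at a mean of 0.744 TPM, and Myod1 were called higher at both 1 and 4 Hz, and Mki67 and Top2a at 4 Hz. Myf5 was called lower at 4 Hz, at -0.61 on the log2 scale, and the others were not called. Of all tested genes, 9.34% were called higher and 8.99% lower at 1 Hz, 10.5% and 9.61% at 4 Hz, and 1.24% and 0.623% at 10 Hz. The calls of this list at 1 and 10 Hz and its lower call at 4 Hz were near these shares. The part of these cell markers in the results was not tested. All 4 adipocyte and all 4 endothelial markers were below 1 TPM, as were 3 of 4 leukocyte markers. Control library 6 was the highest of the 6 controls for 17 of the 32 tested members and also had the highest fibroblast-like sum among them, at 832 TPM against 427 to 644 in the other controls. It is named below wherever a result turned on it.

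Per length, the members spanned a wide range of expression without reaching its top. Sparc, a secreted glycoprotein that binds collagen, was the most abundant at a mean of 848 TPM over the 24 libraries and ranked 193 among all genes. Serpinh1, the collagen chaperone HSP47, followed at 381 TPM, then Fn1 (fibronectin) at 332, Bgn (biglycan) at 259, and P4ha1 (a prolyl 4-hydroxylase catalytic subunit) at 253 TPM. The ranges of Serpinh1 and Fn1 over the 24 libraries overlapped, as did those of Fn1, Bgn, and P4ha1, so the order among these neighbors was not firm. At the low end of the tested genes stood Fbln1 at 4.73, Fbln5 at 3.87, and P4ha3 at 2.33 TPM. Each of the 32 tested members was counted in every library.

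The 6 members that could not be tested were Eln (elastin), Fbn2, Mfap2, Mfap4, Lum (lumican), and Aspn (asporin), with at most 7 counts in any library. Their mean levels ran from 0.010 TPM for Fbn2 to 0.227 TPM for Aspn. Eln was at 0 in 6 of 24 libraries, Aspn in 3, Mfap2 in 12, Mfap4 and Lum in 18 each, and Fbn2 in 22. At this depth changes in them were not tested in the main fit. Aspn, the highest of them, measured 0 to 0.503 CPM in control and 0.361 to 0.820 CPM at 4 Hz. Elastin, the core of an elastic fiber, was nearly undetected while fibrillin-1, 4 fibulin family members, and Mfap5 were measured.

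**Figure D1:**
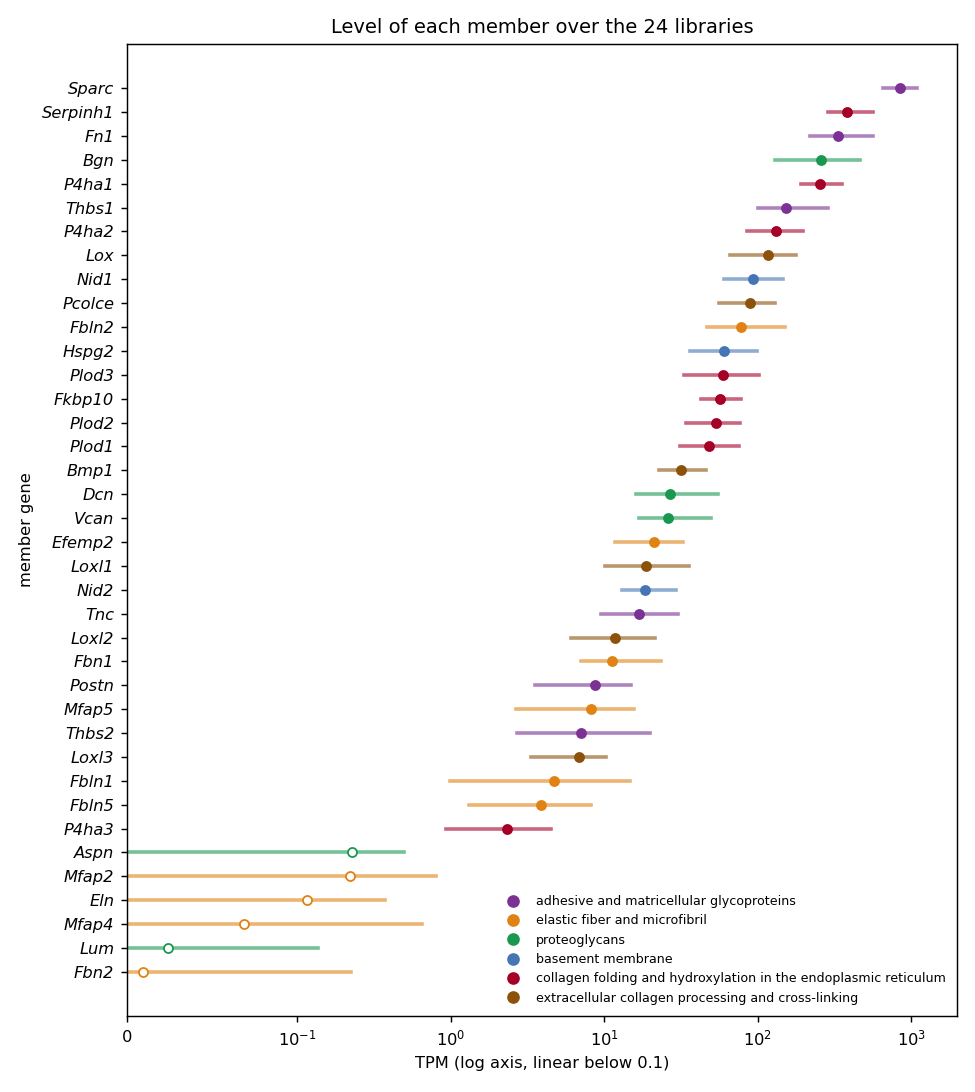
Level of each of the 38 members in TPM (x axis, logarithmic above 0.1 and linear below), sorted by mean. Points are means over 24 libraries, lines run from the lowest to the highest library, colors give the role, and open points are the 6 members not tested. Sparc leads at 848 TPM and the 6 untested members lie below 1 TPM.

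Most changes of the matrix members were increases at 1 and 4 Hz, and hardly any were called at 10 Hz. Calls required 2 things of a gene, an adjusted p under 0.05 and a log2 fold change beyond 0.5 either way. Against control, 15 of 32 members were higher at 1 Hz and 1 was lower, where 9.34% of all tested genes were called higher and 8.99% lower. At 4 Hz, 11 were higher and 6 lower, with 10.5% of all tested genes called higher and 9.61% lower. At 10 Hz, 1 was higher and 0 were lower, with 1.24% of all genes called higher and 0.623% lower. The list was chosen with earlier results of these data known. Its counts beside the shares of all genes are therefore descriptions and cannot serve as a test of the list. DESeq2 gave the same member counts at 10 Hz, and 8 of the 32 members had an unadjusted p below 0.05 there in edgeR. The share of all tested genes with such a p was not counted. This count and the similar ones below therefore cannot be read as particular to the listed genes. The median log2 fold change of the members was 0.42 at 1 Hz, 0.19 at 4 Hz, and -0.16 at 10 Hz, beside -0.01 for all tested genes in each comparison.

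Of the members, 11 were called higher at both 1 and 4 Hz: Postn, Fbln1, Fbln2, Fbln5, Mfap5, Bgn, Nid2, Hspg2, Serpinh1, P4ha3, and Loxl1. Fn1, Nid1, Plod1, and Pcolce were called higher at 1 Hz and missed the call at 4 Hz. Loxl2 was lower at both frequencies, and Tnc, Thbs2, Efemp2, Dcn, and Vcan were called lower at 4 Hz. No member was called in opposite directions. None of the 9 genes called against control at only 1 of these frequencies was called between 4 and 1 Hz directly. The remaining 11 tested members were called in no comparison with control. Their levels over the 24 libraries ran from 950.3 to 1576 CPM for Sparc, 383 to 686 for P4ha1, 386 to 1088 for Thbs1, and 233 to 541 for Lox. The others ran from 129.6 to 281 CPM for P4ha2, 83.4 to 193 for Plod2, 66.9 to 129 for Plod3, 73.7 to 130.4 for Fkbp10, 64.6 to 118 for Bmp1, 52.5 to 154 for Fbn1, and 10.1 to 28.3 for Loxl3.

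The conditions in which these genes differed from control also differed in library composition, as given above. With the log2 share of small RNA as a covariate, 0 members were called at 1 Hz, 1 at 4 Hz (Mfap5), and 1 at 10 Hz (Mfap5), while 13, 11, and 10 of the 32 had an unadjusted p below 0.05. The same fit called 1, 295, and 223 of all 13318 genes in these comparisons, where the fit without the covariate called 2441, 2676, and 248, so at 1 and 4 Hz calls were lost across the whole table. Of the members called at 1 Hz, those with a log2 fold change farther from 0 with the covariate were Mfap5 (1.44 ± 0.34), Postn (0.86 ± 0.35), Fn1 (0.62 ± 0.27), P4ha3 (1.04 ± 0.47), and Pcolce (0.56 ± 0.23). Every other one was nearer 0, among them Fbln1 at 1.34 ± 0.44, Bgn at 0.69 ± 0.23, Loxl1 at 0.55 ± 0.29, and Loxl2 at -0.10 ± 0.20. At 4 Hz only Mfap5, Postn, and P4ha3 of the called members moved farther from 0. Thbs2, at -0.34 ± 0.37, and Loxl2, at -0.60 ± 0.19, were nearer 0 there. All 16 members called at 1 Hz kept their sign and 16 of 17 at 4 Hz did, and the median SE at 1 Hz grew from 0.15 to 0.24. Because the small RNA ranges at 1 and 4 Hz were clear of the control range, the share and the stimulation cannot be told apart. Without control library 6, the counts were 15 higher and 0 lower at 1 Hz, 11 and 3 at 4 Hz, and 0 and 0 at 10 Hz. On log2(TPM + 1) with limma, the counts were 10 higher and 1 lower at 1 Hz and 6 and 6 at 4 Hz. That fit called 1985 of 13627 genes at 1 Hz and 2734 at 4 Hz, with 41.7% and 24.8% of them higher. Most of its calls over all genes were therefore lower. On that scale the median of all genes itself shifted by -0.06 at 1 Hz and -0.16 at 4 Hz. In bulk samples, fewer cells of a type and less RNA per cell cannot be told apart.

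**Figure D2:**
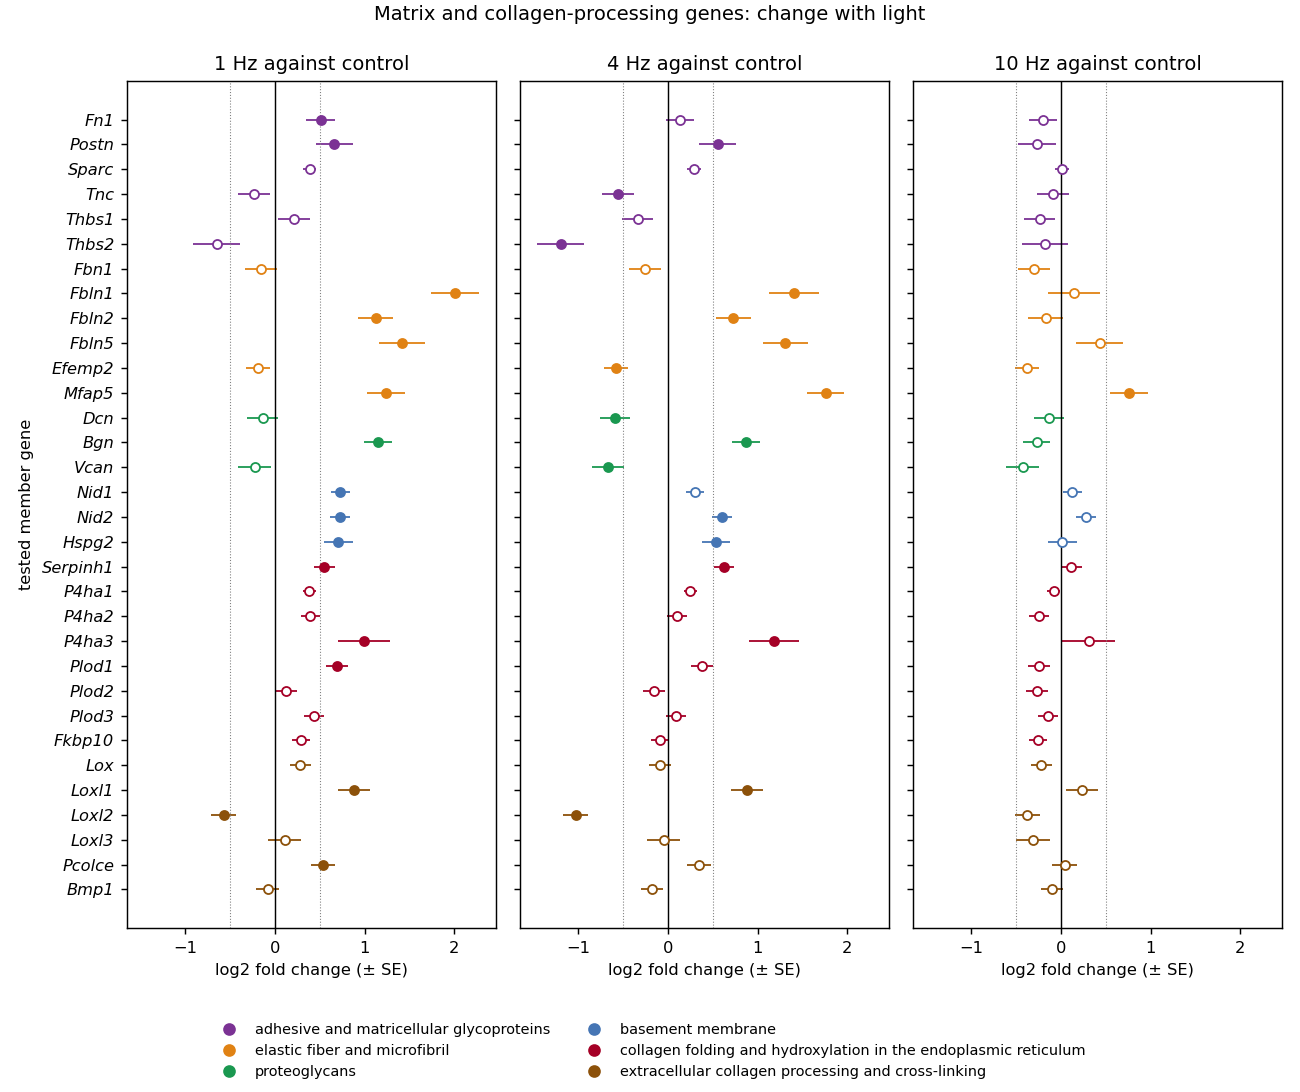
Log2 fold change against control (x axis) with its SE for the 32 tested members (y axis, grouped and colored by role) at 1, 4, and 10 Hz. Filled points were called, and dotted lines mark 0.5 in either direction. Fbln1 at 1 Hz reaches 2.01 and Thbs2 at 4 Hz reaches -1.20, while the points at 10 Hz lie between -0.43 and 0.76.

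Among the 6 adhesive and matricellular glycoproteins, 2 were higher at 1 Hz, and 1 was higher and 2 were lower at 4 Hz. Postn encodes periostin, which promotes collagen assembly. It measured 7.71 to 21.8 CPM in control (median 12.4), 15.6 to 22.9 at 1 Hz (median 22.8), 11.9 to 25.3 at 4 Hz (median 19.6), and 6.83 to 13.5 at 10 Hz (median 11.99). The stimulated libraries at 1 and 4 Hz sat mainly above the controls, with 4 and 3 of 6 above every control. Postn rose by a log2 fold change of 0.66 ± 0.21 (SE, adjusted p = 0.0137) at 1 Hz and 0.55 ± 0.20 (adjusted p = 0.0328) at 4 Hz. The 4 Hz call was lost without any 1 of control libraries 1 to 4 or of 4 Hz libraries 3, 4, and 6, at 0.45 to 0.55. Fn1, the fibronectin that links cells to the matrix through integrins, rose by 0.51 ± 0.16 (adjusted p = 0.0136) at 1 Hz. Its call was lost without control library 1, 3, or 4 or 1 Hz library 4 or 6, at 0.42 to 0.49, and at 4 Hz its log2 fold change was 0.14 ± 0.16 (adjusted p = 0.518).

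Thbs2, which encodes thrombospondin-2, a modulator of matrix assembly and blood vessel growth, moved the other way. It measured 25.0 to 76.4 CPM in control (median 32.5), 20.6 to 33.5 at 1 Hz (median 23.1), 12.6 to 22.4 at 4 Hz (median 17.1), and 16.9 to 59.9 at 10 Hz (median 30.9). Every 4 Hz library lay below every control library, and the 10 Hz libraries spread over the ranges of all the other groups. At 4 Hz Thbs2 fell, with a log2 fold change of -1.20 ± 0.27 (adjusted p = 0.000877), and its value at 1 Hz was -0.65 ± 0.26 (adjusted p = 0.0547).

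Tenascin-C, encoded by Tnc and known from developing and injured muscle, measured 62.6 to 140 CPM in control (median 91.8), 69.7 to 106 at 1 Hz (median 75.8), 52.5 to 89.2 at 4 Hz (median 60.6), and 66.8 to 127 at 10 Hz (median 84.7). Of the 4 Hz libraries, 4 lay below every control. Tnc fell at 4 Hz by -0.56 ± 0.18 (adjusted p = 0.0139), a call lost without control library 5 or 6, at -0.48 and -0.42. Sparc had a small but precise difference at 1 Hz, 0.39 ± 0.08 (adjusted p = 0.000402), under the fold threshold. Thbs1, which encodes an activator of latent TGF-beta, ranged from 386 to 1088 CPM in control and 652 to 849 at 1 Hz, and was not called against control.

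The elastic fiber and microfibril genes held the largest increases, with 4 of 6 tested members higher at 1 Hz and 4 higher and 1 lower at 4 Hz. Fbln1 encodes fibulin-1, a calcium-binding glycoprotein of microfibrils and basement membranes. It measured 3.26 to 5.03 CPM in control (median 3.91), 10.8 to 26.8 at 1 Hz (median 14.0), 6.37 to 17.4 at 4 Hz (median 10.1), and 1.69 to 5.60 at 10 Hz (median 4.68). All 1 and 4 Hz libraries exceeded all controls, and the 10 Hz libraries lay on both sides of them. Fbln1 rose 4.03-fold at 1 Hz (log2 fold change 2.01 ± 0.27, adjusted p = 9.18e-06) and 2.65-fold at 4 Hz (1.41 ± 0.27, adjusted p = 0.000257).

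Fbln2 encodes fibulin-2, which joins fibronectin, nidogen, and elastic fibers. It measured 94.8 to 168 CPM in control (median 134), 182 to 395 at 1 Hz (median 284), 139 to 357 at 4 Hz (median 211), and 97.6 to 143 at 10 Hz (median 114). The 1 Hz libraries were clear of the controls, whereas 2 of 6 at 4 Hz lay within the control range. Fbln2 rose by 1.13 ± 0.19 (adjusted p = 0.000109) at 1 Hz and 0.73 ± 0.19 (adjusted p = 0.00407) at 4 Hz. Fbln5, whose product fibulin-5 helps elastin assemble, measured 2.47 to 5.49 CPM in control and rose by 1.42 ± 0.25 (adjusted p = 0.000147) and 1.31 ± 0.25 (adjusted p = 0.000222).

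Mfap5 encodes the microfibril-associated glycoprotein MAGP-2 and was the only member called at all 3 frequencies. It measured 1.34 to 2.88 CPM in control (median 2.28), 4.05 to 6.54 at 1 Hz (median 5.45), 6.58 to 9.82 at 4 Hz (median 7.27), and 2.50 to 5.41 at 10 Hz (median 3.64). The 4 Hz libraries lay above all the others, those at 1 Hz lay above the controls, and 5 of 6 at 10 Hz did. Mfap5 rose by 1.24 ± 0.21 (adjusted p = 0.000101) at 1 Hz, 1.76 ± 0.21 (adjusted p = 7.17e-07) at 4 Hz, and 0.76 ± 0.22 (adjusted p = 0.0388) at 10 Hz. The 10 Hz call was lost without control library 1, 2, or 6 or 10 Hz library 1, 2, 5, or 6, at 0.60 to 0.78 with an adjusted p of up to 0.108. It was also lost with only the 12 libraries compared in the fit, at 0.76.

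Efemp2, which encodes fibulin-4, a carrier of lysyl oxidase to elastic fibers, differed from the other fibulins. It measured 23.1 to 30.1 CPM in control (median 24.4), 17.2 to 28.4 at 1 Hz (median 22.4), 13.7 to 21.5 at 4 Hz (median 17.4), and 14.0 to 23.8 at 10 Hz (median 20.0). All 4 Hz libraries were below all controls, and 5 of 6 at 10 Hz were. Efemp2 fell at 4 Hz by -0.58 ± 0.13 (adjusted p = 0.00128), with -0.38 ± 0.13 (adjusted p = 0.0935) at 10 Hz. Fbn1, the fibrillin that forms the microfibril itself, was at -0.16 ± 0.18 (adjusted p = 0.513) at 1 Hz and was not called.

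Of the 3 measured proteoglycans, biglycan rose at 1 and 4 Hz while decorin and versican fell at 4 Hz. Bgn measured 219 to 272 CPM in control (median 233), 334 to 646 at 1 Hz (median 542), 273 to 573 at 4 Hz (median 456), and 162 to 234 at 10 Hz (median 203). All 1 and 4 Hz libraries exceeded all controls, and 5 of 6 at 10 Hz lay below them. Bgn rose 2.22-fold at 1 Hz (log2 fold change 1.15 ± 0.15, adjusted p = 6.61e-06) and 1.83-fold at 4 Hz (0.87 ± 0.15, adjusted p = 7.58e-05), and at 10 Hz it was at -0.27 ± 0.15 (adjusted p = 0.313).

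Dcn encodes decorin, a close relative of biglycan that binds collagen fibrils and limits their width. It measured 24.8 to 59.2 CPM in control (median 33.0), 22.5 to 40.1 at 1 Hz (median 31.9), 21.1 to 26.4 at 4 Hz (median 23.9), and 24.4 to 37.8 at 10 Hz (median 34.1). The 4 Hz libraries were low and close together, with 4 of 6 below every control. Dcn fell at 4 Hz by -0.59 ± 0.17 (adjusted p = 0.00695). Vcan, which encodes the large hyaluronan-binding proteoglycan versican, measured 87.6 to 237 CPM in control (median 111), 94.0 to 121 at 1 Hz (median 117), 63.1 to 104 at 4 Hz (median 82.5), and 67.6 to 116 at 10 Hz (median 101). It fell by -0.67 ± 0.18 (adjusted p = 0.00460), with 5 of 6 libraries below every control. Both calls were lost without control library 6, at -0.40 for Dcn and -0.41 for Vcan.

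All 3 basement membrane genes rose at 1 Hz, and 2 of them at 4 Hz. Nid1 and Nid2 encode nidogens, which bridge laminin and collagen IV. Nid1 measured 253 to 429 CPM in control (median 312), 442 to 619 at 1 Hz (median 537), 345 to 447 at 4 Hz (median 401), and 302 to 414 at 10 Hz (median 355). Its 1 Hz libraries were above all controls, and the 4 and 10 Hz ranges overlapped the control range. Nid1 rose at 1 Hz by 0.73 ± 0.11 (adjusted p = 1.68e-05), and at 4 Hz its 0.30 ± 0.11 (adjusted p = 0.0247) was under the fold threshold.

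Nid2 measured 37.6 to 53.4 CPM in control (median 47.9), 61.9 to 89.6 at 1 Hz (median 75.7), 53.2 to 86.4 at 4 Hz (median 68.5), and 48.6 to 61.8 at 10 Hz (median 55.1). The 1 Hz libraries did not overlap the controls, and 5 of 6 at 4 Hz exceeded them. Nid2 rose by 0.72 ± 0.11 (adjusted p = 4.41e-05) at 1 Hz and 0.60 ± 0.11 (adjusted p = 0.000202) at 4 Hz. Hspg2 encodes perlecan, the heparan sulfate proteoglycan of basement membranes, and measured 240.1 to 330.4 CPM in control (median 273), 303 to 644 at 1 Hz (median 447), 298 to 628 at 4 Hz (median 373), and 250.1 to 335 at 10 Hz (median 265). At 1 and at 4 Hz 5 of 6 libraries exceeded every control, and at 10 Hz 2 of 6 did. Hspg2 rose by 0.71 ± 0.16 (adjusted p = 0.00139) and 0.53 ± 0.16 (adjusted p = 0.00974), and the latter call was lost without 4 Hz library 6, at 0.38.

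**Figure D3:**
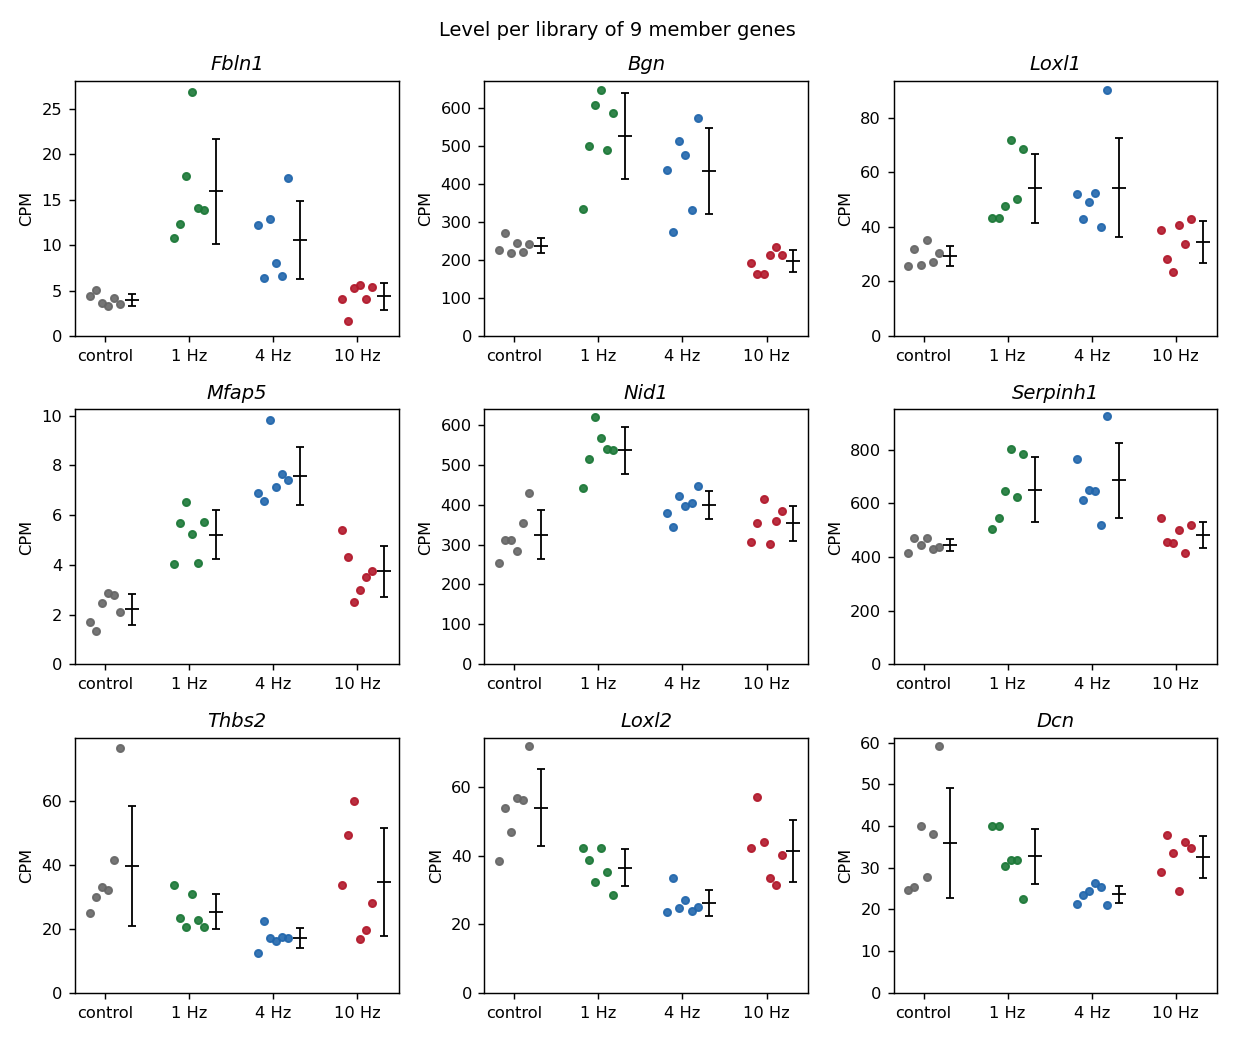
Level of 9 members in CPM (y axis, from 0) in the 6 libraries of each condition (x axis). Points are libraries, and the black marks give mean and SD (n = 6). Fbln1, Bgn, Loxl1, Mfap5, and Serpinh1 at 1 and 4 Hz lie above all controls, while Thbs2 and Loxl2 at 4 Hz lie below them.

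Of the 8 genes of collagen folding and hydroxylation, 3 were higher at 1 Hz, 2 at 4 Hz, and 0 lower at either, with a median log2 fold change of 0.42 at 1 Hz and 0.17 at 4 Hz. Serpinh1, whose product HSP47 escorts procollagen through the secretory pathway, measured 415 to 473 CPM in control (median 440.2), 506 to 801 at 1 Hz (median 635), 519.8 to 924 at 4 Hz (median 647), and 414 to 545 at 10 Hz (median 478). The 1 and 4 Hz libraries were all above the controls. Serpinh1 rose by 0.55 ± 0.12 (adjusted p = 0.000726) at 1 Hz, a call lost without 1 Hz library 4 or 6 at 0.48 and 0.49, and by 0.62 ± 0.12 (adjusted p = 0.000163) at 4 Hz.

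P4ha1, P4ha2, and P4ha3 encode alternative catalytic subunits of prolyl 4-hydroxylase, which makes the hydroxyproline that keeps the collagen helix stable. P4ha3 was the scarcest, at 1.02 to 3.56 CPM in control, 3.39 to 6.07 at 1 Hz, and 3.08 to 7.996 at 4 Hz. At each frequency 4 of 6 libraries exceeded every control, and P4ha3 rose by 0.995 ± 0.29 (adjusted p = 0.00843) and 1.18 ± 0.28 (adjusted p = 0.00157). P4ha1 measured 415 to 476 CPM in control, 537 to 686 at 1 Hz, and 499 to 608 at 4 Hz, so that neither stimulated group overlapped the control. Its differences were 0.38 ± 0.07 (adjusted p = 0.000245) and 0.25 ± 0.07 (adjusted p = 0.00759), both under the fold threshold. P4ha2 was at 0.40 ± 0.11 (adjusted p = 0.00627) at 1 Hz and 0.10 ± 0.11 (adjusted p = 0.489) at 4 Hz.

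The lysyl hydroxylases, encoded by Plod1, Plod2, and Plod3, prepare the lysines from which cross-links form. Plod1 measured 77.2 to 103 CPM in control (median 86.1), 95.6 to 164 at 1 Hz (median 150.1), and 90.4 to 148 at 4 Hz (median 105). Of the 1 Hz libraries, 5 of 6 exceeded every control. Plod1 rose at 1 Hz by 0.69 ± 0.12 (adjusted p = 0.000153), with 0.38 ± 0.12 (adjusted p = 0.0167) at 4 Hz. Plod3 was at 0.44 ± 0.11 (adjusted p = 0.00347) at 1 Hz, under the fold threshold, and Plod2, the form that hydroxylates the collagen ends, was at 0.12 ± 0.12 (adjusted p = 0.454). Fkbp10, a prolyl isomerase that acts with Plod2, was at 0.29 ± 0.10 (adjusted p = 0.0278).

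Promoter sequence was compared for members that moved in different ways, using the RefSeq table of mouse promoters, which names its build as GRCm38.p6 and held 29 windows for 22 of the 38 members. In the 250 bases before each start, on both strands and with overlapping matches counted, the hypoxia response core (ACGTG or GCGTG) was in 14 of 29 member windows and in 38.6% of all 32851 windows. The AP-1 letters (TGACTCA or TGAGTCA) were in 0 of 29 and 4.46%, the TEAD letters (CATTCC) in 2 of 29 and 12.6%, and the heat shock core in 0 of 29 and 6.69%. The windows below show every gene in the table with a called log2 fold change beyond 1 in either direction against control (Fbln1, Fbln2, Fbln5, Bgn, P4ha3, and Thbs2) and, beside P4ha3, its relatives P4ha1 and P4ha2. This choice was made after the values were seen, and the windows read 5′ to 3′ on the gene's own strand with the hypoxia response core in capitals. They lie at chr10:59323046-59323295, plus strand (P4ha1), chr11:54100674-54100923, plus strand (P4ha2), chr7:100285270-100285519, plus strand (P4ha3), chrX:73483351-73483600, plus strand (Bgn), chr15:85205699-85205948, plus strand (Fbln1, the upstream of its 2 overlapping windows), chr6:91212514-91212763, plus strand (Fbln2), chr12:101818485-101818734, minus strand and chr12:101819120-101819369, minus strand (Fbln5, windows 1 and 2), and chr17:14694263-14694512, minus strand (Thbs2).
P4ha1: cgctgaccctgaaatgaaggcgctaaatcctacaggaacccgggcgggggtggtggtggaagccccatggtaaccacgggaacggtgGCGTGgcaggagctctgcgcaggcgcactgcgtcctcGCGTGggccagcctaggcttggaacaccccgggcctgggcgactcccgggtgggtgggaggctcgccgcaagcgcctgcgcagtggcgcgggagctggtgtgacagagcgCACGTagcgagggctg
P4ha2: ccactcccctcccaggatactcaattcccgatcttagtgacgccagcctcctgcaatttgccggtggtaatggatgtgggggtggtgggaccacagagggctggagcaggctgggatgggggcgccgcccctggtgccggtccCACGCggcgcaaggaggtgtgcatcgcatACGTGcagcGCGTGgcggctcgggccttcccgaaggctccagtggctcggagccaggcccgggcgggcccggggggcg
P4ha3: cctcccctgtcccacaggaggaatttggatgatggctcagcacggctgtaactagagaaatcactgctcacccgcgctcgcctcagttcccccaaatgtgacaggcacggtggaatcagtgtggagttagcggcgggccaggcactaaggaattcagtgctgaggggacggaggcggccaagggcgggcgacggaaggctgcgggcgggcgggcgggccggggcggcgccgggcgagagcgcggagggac
Bgn: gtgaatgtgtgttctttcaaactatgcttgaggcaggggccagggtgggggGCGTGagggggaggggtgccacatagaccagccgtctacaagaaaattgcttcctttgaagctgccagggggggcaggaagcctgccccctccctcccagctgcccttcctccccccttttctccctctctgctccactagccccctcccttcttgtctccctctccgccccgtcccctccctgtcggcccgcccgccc
Fbln1: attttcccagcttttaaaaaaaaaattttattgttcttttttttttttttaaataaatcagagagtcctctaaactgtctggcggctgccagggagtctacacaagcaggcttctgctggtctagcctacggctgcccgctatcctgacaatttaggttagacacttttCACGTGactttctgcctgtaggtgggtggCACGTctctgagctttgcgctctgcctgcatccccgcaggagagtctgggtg
Fbln2: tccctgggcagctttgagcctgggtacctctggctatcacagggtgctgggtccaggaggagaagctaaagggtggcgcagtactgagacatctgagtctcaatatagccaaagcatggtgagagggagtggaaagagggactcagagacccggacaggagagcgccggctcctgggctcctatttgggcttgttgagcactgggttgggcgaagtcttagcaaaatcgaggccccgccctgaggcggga
Fbln5 window 1: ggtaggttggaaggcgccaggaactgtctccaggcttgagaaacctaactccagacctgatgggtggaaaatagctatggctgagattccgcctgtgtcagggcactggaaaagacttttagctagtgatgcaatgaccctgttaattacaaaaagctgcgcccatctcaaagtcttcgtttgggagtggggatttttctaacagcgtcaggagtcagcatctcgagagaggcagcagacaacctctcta
Fbln5 window 2: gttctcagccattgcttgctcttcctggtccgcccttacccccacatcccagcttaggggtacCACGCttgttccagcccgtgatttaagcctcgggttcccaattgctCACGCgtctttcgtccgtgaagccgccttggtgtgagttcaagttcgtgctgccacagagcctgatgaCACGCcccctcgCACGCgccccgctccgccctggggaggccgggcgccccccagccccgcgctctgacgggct
Thbs2: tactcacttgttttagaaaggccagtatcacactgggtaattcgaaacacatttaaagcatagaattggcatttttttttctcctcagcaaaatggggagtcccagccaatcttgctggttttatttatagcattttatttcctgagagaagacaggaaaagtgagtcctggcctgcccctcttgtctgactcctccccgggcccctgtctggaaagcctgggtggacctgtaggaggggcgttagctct
P4ha1 and P4ha2 held 3 matches each and P4ha3 held 0, Bgn held 1, and Fbln1 held 3 (the palindrome CACGTG counts on each strand), or 4 in its other window. Fbln2 held 0, Fbln5 held 0 in window 1 and 4 in window 2, and Thbs2 held 0. Genes that rose were thus found with and without a match. A match is a run of letters and not a shown binding site.

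Outside the cell, Loxl1 and Loxl2 moved in opposite directions. Both encode lysyl oxidase-like enzymes, which start cross-links in elastin and collagen, and Loxl2 is known for acting on collagen IV. Loxl1 measured 25.7 to 35.1 CPM in control (median 28.9), 43.2 to 71.8 at 1 Hz (median 48.9), 39.9 to 90.1 at 4 Hz (median 50.5), and 23.4 to 43.1 at 10 Hz (median 36.2). Every 1 and 4 Hz library was above every control. Loxl1 rose by 0.88 ± 0.18 (adjusted p = 0.000520) at 1 Hz and 0.88 ± 0.18 (adjusted p = 0.000357) at 4 Hz.

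Loxl2 measured 38.6 to 72.0 CPM in control (median 55.1), 28.6 to 42.3 at 1 Hz (median 37.0), 23.6 to 33.7 at 4 Hz (median 25.0), and 31.5 to 57.2 at 10 Hz (median 41.3). The 4 Hz libraries were all below the controls, and 3 of 6 at 1 Hz were. Loxl2 fell by -0.57 ± 0.14 (adjusted p = 0.00265) at 1 Hz, a call lost without control library 6 at -0.47, and by -1.03 ± 0.14 (adjusted p = 4.63e-06) at 4 Hz. Lox itself, the founding member of the family, was at 0.28 ± 0.12 (adjusted p = 0.0649) at 1 Hz, and Loxl3 was at 0.11 ± 0.19 (adjusted p = 0.679).

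Pcolce and Bmp1 act together on procollagen: BMP-1 cuts off the C-terminal propeptide, and the enhancer protein encoded by Pcolce speeds the cut. Pcolce rose at 1 Hz by 0.54 ± 0.14 (adjusted p = 0.00365), with 5 of 6 libraries above every control. The call was lost without control library 1 or 3 or 1 Hz library 4, at 0.47 to 0.495. Bmp1 was at -0.08 ± 0.12 (adjusted p = 0.633) at 1 Hz and -0.18 ± 0.12 (adjusted p = 0.250) at 4 Hz.

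Within each library, ratios of related members in TPM showed how unevenly some families moved. These pairs were chosen after their values were seen and are given without a test. The ratio of Bgn to Dcn had medians of 6.80 in control, 15.6 at 1 Hz, 17.0 at 4 Hz, and 5.69 at 10 Hz. That of Loxl1 to Loxl2 was 0.677 to 0.985 in control, 1.44 to 3.54 at 1 Hz, 1.67 to 4.87 at 4 Hz, and 0.809 to 1.76 at 10 Hz, so Loxl2 was the more abundant form per length in every control library and Loxl1 in every 1 and 4 Hz library. The ratio of Fbln1 to Efemp2 had medians of 0.0974, 0.339, 0.339, and 0.129, and that of Thbs1 to Thbs2 18.2, 33.9, 32.3, and 16.5 in the same order. By contrast P4ha1 to P4ha2 stayed between medians of 1.87 and 2.10, and Nid1 to Nid2 between 4.49 and 5.45.

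**Figure D4:**
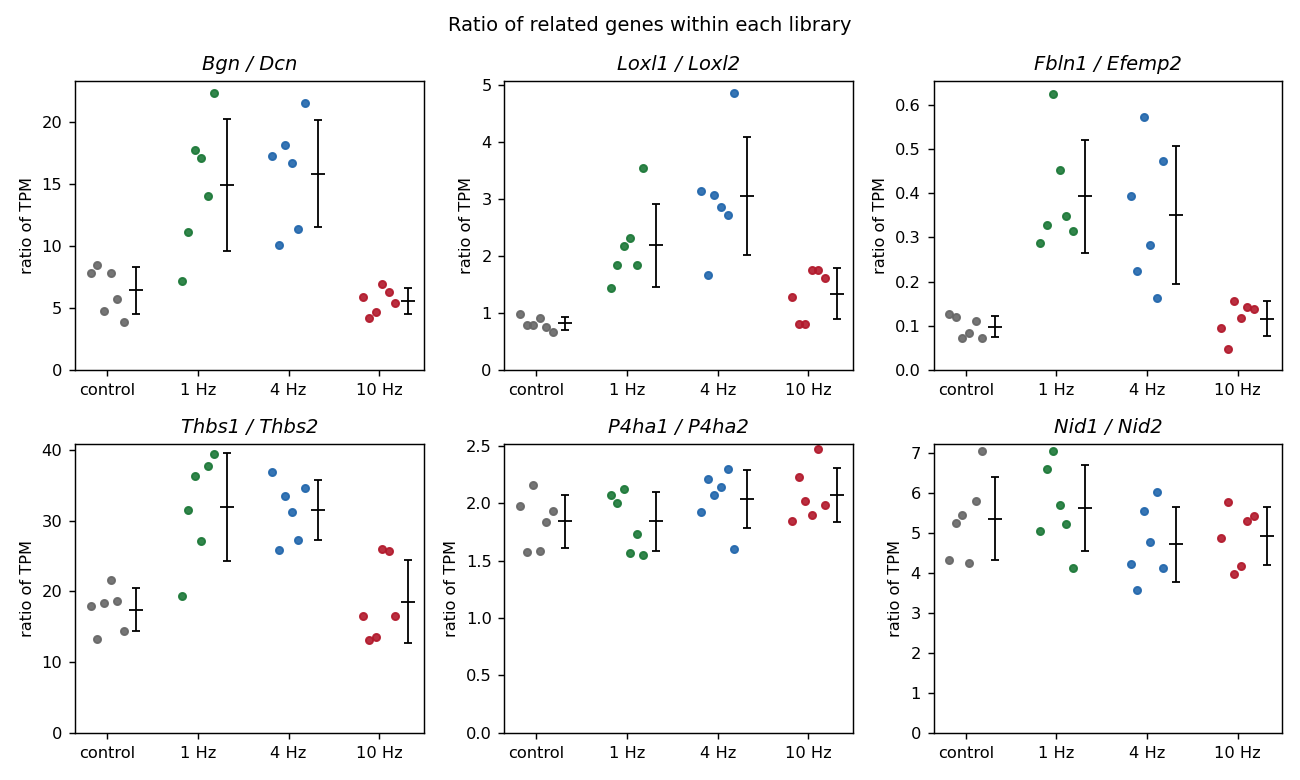
Ratio of TPM of 6 pairs of related genes (y axis, from 0) in each library by condition (x axis), with mean and SD in black (n = 6). The ratios of Loxl1 to Loxl2 at 1 Hz (1.44 to 3.54) and 4 Hz (1.67 to 4.87) lie above those of control (0.677 to 0.985), while P4ha1 to P4ha2 stays near the same level.

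Summed over all members, the level was 0.248% to 0.372% of all TPM in control (median 0.309%), 0.347% to 0.463% at 1 Hz (median 0.402%), 0.276% to 0.379% at 4 Hz (median 0.316%), and 0.242% to 0.294% at 10 Hz (median 0.271%). The 1 Hz libraries were high, with overlap only at the upper end of the control range, and the 4 Hz and control ranges largely coincided. The sum of the adhesive glycoproteins, which Sparc, Fn1, and Thbs1 dominate, had medians of 1322, 1623, 1275, and 1198 TPM in control, 1, 4, and 10 Hz. The basement membrane sum was 109.8 to 178 TPM in control and 188 to 261 at 1 Hz, without overlap. The proteoglycan sum, mostly Bgn, was 212 to 318 TPM in control and 335 to 523 at 1 Hz, again without overlap. These sums are descriptions and were not tested.

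**Figure D5:**
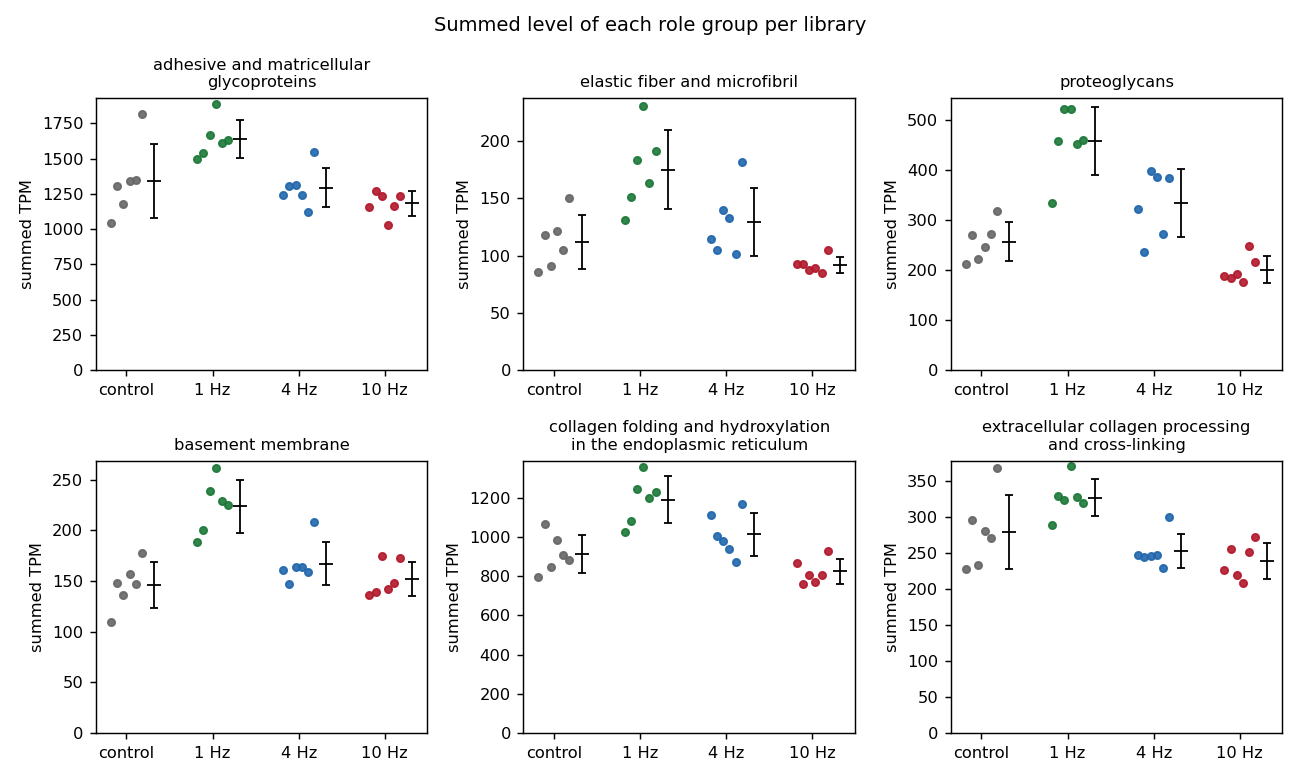
Summed TPM of each role group (y axis, from 0) in each library by condition (x axis), with mean and SD in black (n = 6). The basement membrane and proteoglycan sums at 1 Hz lie above all controls, and control library 6 is the highest control in 5 of 6 panels.

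Many of these genes were lower at 10 Hz than at 1 or 4 Hz when the frequencies were compared directly. Against 1 Hz, 15 of 32 members were lower at 10 Hz and 0 were higher, where 8.49% of all tested genes were called lower and 9.45% higher. Fbln1 was lower by -1.87 ± 0.26 (adjusted p = 7.74e-06), Bgn by -1.42 ± 0.15 (adjusted p = 3.82e-07), and Fbln2 by -1.30 ± 0.19 (adjusted p = 1.83e-05), each with no overlap of the 6 and 6 libraries. The collagen folding genes held 5 of the 15, among them Plod1 at -0.94 ± 0.12 (adjusted p = 4.38e-06). The call of Lox was lost in 5 of 12 fits with a library left out and that of P4ha3 in 9 of 12.

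Against 4 Hz, 11 members were lower and 2 higher at 10 Hz, with 5.64% of all tested genes called lower and 5.32% higher. The largest decreases were Fbln1 at -1.26 ± 0.26 (adjusted p = 0.00140), Bgn at -1.14 ± 0.15 (adjusted p = 3.30e-05), and Mfap5 at -0.9997 ± 0.19 (adjusted p = 0.000632). The 2 that were higher, Thbs2 at 1.02 ± 0.26 (adjusted p = 0.00687) and Loxl2 at 0.65 ± 0.14 (adjusted p = 0.00192), were among those that fell at 4 Hz against control. Without 4 Hz library 6, 7 members were lower, since Hspg2, Serpinh1, P4ha3, and Loxl1 lost their calls. Without 10 Hz library 4, 4 were higher, with Tnc and Dcn added. With the small RNA share as a covariate, 1 member was called at 10 Hz against 1 Hz and 0 against 4 Hz in edgeR, with 15 and 7 at an unadjusted p below 0.05, and 100 and 0 of all 13318 genes were called.

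Between 4 and 1 Hz, 1 member was lower and 0 were higher at 4 Hz, where 1.40% of all tested genes were called lower and 1.59% higher. That member was Thbs1, at 460.0 to 587 CPM at 4 Hz (median 531) and 652 to 849 at 1 Hz (median 775), with no overlap. It was lower by -0.55 ± 0.17 (adjusted p = 0.0383), a call lost without any 1 of 1 Hz libraries 4 to 6 or of 4 Hz libraries 1, 3, 4, and 5, at -0.57 to -0.51. Loxl2 at -0.46 ± 0.14 (adjusted p = 0.0331) and Nid1 at -0.43 ± 0.10 (adjusted p = 0.00870) passed the adjusted p and missed the fold threshold. Without 4 Hz library 6, 3 members were lower, with Fbln1 and Fbln2 added at -0.80 and -0.59. Without 1 Hz library 6, Dcn and Loxl2 were added, and without 4 Hz library 2, Loxl2 alone was. Mfap5, with no overlap between the 2 groups, was at 0.52 ± 0.18 (adjusted p = 0.0593) and was called higher without 1 Hz library 3, at 0.61. Limma on log2(TPM + 1) called 7 lower, and it called 460 of all 13627 genes, with 12.2% of them higher. At 10 Hz against control, the 95% interval of the log2 fold change lay within 1 of 0 for 31 of the 32 members.

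The pattern of Fbln1, the member with the largest fold change at 1 Hz, had its highest Pearson correlations among the members with Bgn, Fbln2, and Hspg2. These correlations of log2 CPM with Fbln1 over the 24 libraries were 0.92, 0.88, and 0.86, and 0.69, 0.59, and 0.66 once the mean of each condition was removed. The order depended on the measure, since Fbln5 led by Spearman's rho at 0.89, and P4ha2 and Serpinh1 stood above Fbln2 within conditions, at 0.65 and 0.63. The libraries share the 4 conditions and their differences in depth and composition, so these values are descriptions.

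A further 84 genes of the same pathways were listed beside the members, and 50 of them could be tested. They too were chosen with earlier results of these data known, so their counts are descriptions. Of these 50, 19 were higher and 2 lower at 1 Hz, 14 higher and 4 lower at 4 Hz, and 0 in either direction at 10 Hz by edgeR, where 9 had an unadjusted p below 0.05 and DESeq2 called 0. Of all tested genes, 9.34% were called higher and 8.99% lower at 1 Hz, and 10.5% and 9.61% at 4 Hz. At 10 Hz these shares were 1.24% and 0.623%, so 0 of 50 was near the share of all genes. Smoc2, a matricellular relative of Sparc, had the largest rise, 1.62 ± 0.53 (adjusted p = 0.0188) at 1 Hz and 1.68 ± 0.52 (adjusted p = 0.0120) at 4 Hz, from a mean of 0.451 CPM in control. Fbln7, another fibulin, rose by 1.07 ± 0.29 (adjusted p = 0.00569) at 1 Hz, and Hapln3, a link protein that ties proteoglycans to hyaluronan, rose by 1.18 ± 0.29 (adjusted p = 0.00228) at 4 Hz. Pcolce2, the second enhancer of procollagen cleavage, fell by -0.69 ± 0.16 (adjusted p = 0.00128) and -1.28 ± 0.16 (adjusted p = 1.44e-06), while its relative Pcolce had risen at 1 Hz. Prelp, a small leucine-rich proteoglycan, fell by -0.61 ± 0.17 (adjusted p = 0.00667) and -1.15 ± 0.17 (adjusted p = 1.13e-05).

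Several of these loci overlap other genes. By the GENCODE M39 annotation of GRCm39, 10 of the 38 members are overlapped by a protein-coding gene on the opposite strand, among them Mfap5 by Rimklb, Efemp2 by Mus81, Nid2 by Rtraf, Hspg2 by Ldlrad2, and Loxl2 by R3hcc1. Use of strand in the counting is not given in the sources used here, so the values of these members are less certain. Of the genes with the largest changes, Fbln1 spans positions 85090150 to 85170737 of chromosome 15 on the plus strand with 15 exons in its canonical transcript. Bgn spans 72527208 to 72539541 of chromosome X, plus strand, with 8 exons, and Thbs2 spans 14885761 to 14914528 of chromosome 17, minus strand, with 22 exons.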

How the data were processed

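RNA of 24 muscle tissues, 6 per condition, was sequenced by the authors as directional, poly(A)-selected, 50-base paired-end libraries (Singular G4). Per the labels, low-input material was ribodepleted, without naming the samples. Sample titles gave the condition and replicate. The authors ran nf-core/rnaseq with STAR and Salmon on GRCm39 and its Ensembl annotation, and also mapped reads with BWA-MEM and took quality metrics with bedtools. The submitters' processing notes list BWA 0.7.12-r1039, bedtools 2.25.0, mm10, and hg19. The deposited values were salmon expected counts (estimated counts per gene, not normalized), and a second deposited table held TPM scaled by the authors to a fixed sum in each library.

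Expected counts were rounded and filtered with edgeR's filterByExpr, which kept 13318 of 56941 genes with 99.8% of counts. In R 4.3.3, all 24 libraries entered a single TMM-scaled model with edgeR's quasi-likelihood test (edgeR 4.0.16, with limma 3.58.1), from which the 6 comparisons were drawn. P-values were adjusted by Benjamini-Hochberg across every tested gene. Calls needed adjusted p under 0.05 and a log2 fold change beyond 0.5 either way. CPM of genes use TMM-scaled library sizes, and small RNA CPM use raw totals. The study used DESeq2, run here (1.42.0) as an alternative. The fit was tested on simulated data for 1 Hz against control over 13318 genes. In these, 200 genes were changed, each by a log2 fold change of 1 or more in either direction. Changes between 0.5 and 1 were not simulated, so the shares found do not cover them. The share found and the share of false calls were 85.5% and 4.47% for edgeR, 86.5% and 6.99% for DESeq2, and 86.0% and 5.49% for limma over 13173 genes.

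The members, their roles, and the lists of pathway genes and markers were chosen with earlier results of these data known. Full values were given for up to 6 called members per direction with the largest fold change and a mean of at least 10 CPM in each comparison with control. Beyond that rule they were given for Fbln1 and Mfap5, and in part for Fbln5, P4ha3, and Plod1. For other pathway genes, the 2 largest called each way were named. No 2 libraries of a condition agreed within sampling noise (60 pairs, lowest chi-square per degree of freedom 3.25). Total counts of 4.09 to 15.2 M set the precision. Alternatives were leaving out each library in turn, adding the small RNA share as a covariate or the replicate number as a block, fitting only the 12 libraries of a comparison, dropping the fold threshold, 2 further scalings, 2 further filters, and DESeq2. Limma was applied to log2(TPM + 1), with and without a minimum mean of 1 TPM, and to log2(TPM + 0.1). Log2(TPM + pseudocount) understates the change of low genes.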

Additional observations from a re-analysis of the deposited data

Results flagged for a closer look

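Within each condition, the highest or lowest of the 6 libraries was compared with the rest by Dixon's test for each tested member, and 8 of 128 groups held a library farther away than its 95% critical value. Chance alone gives about 1 in 20 such groups. Control library 6 was the far one in 4 of them, with 1293 CPM of Sparc (next 1073), 76.4 CPM of Thbs2 (next 41.6), 154 CPM of Fbn1 (next 91.8), and 237 CPM of Vcan (next 139). At 4 Hz, library 3 stood high for Mfap5 at 9.82 CPM (next 7.66), library 6 for Loxl1 at 90.1 CPM (next 52.3), and library 2 for Loxl2 at 33.7 CPM (next 27.0). At 10 Hz, library 5 stood low for Fbln5 at 3.31 CPM (next 4.61).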

How the results depend on the processing

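Every member called against control kept its direction under the scaling, filter, test, unit, and library alternatives that tested it and when any 1 library was left out. The exception was Tnc at 4 Hz, which changed from -0.56 to 0.051 with the small RNA share as a covariate. That covariate also left 0 members higher and 0 lower at 1 Hz, 1 and 0 at 4 Hz, 2 lower at 4 against 1 Hz, 1 lower at 10 against 1 Hz, and 0 and 0 at 10 against 4 Hz, where 1, 295, 411, 100, and 0 of all 13318 genes were called in the same order. At 1 Hz, 2 members were lower under total count scaling, no filter, a mean of at least 5 CPM, and only the 12 libraries. A mean of at least 5 CPM gave 12 higher at 1 Hz. It kept 30 members, without Mfap5 and P4ha3, whose means of 4.69 and 3.57 CPM were below that minimum. Limma on log2(TPM + 1), log2(TPM + 0.1), and log2(TPM + 1) without a filter each called 10 higher and 1 lower at 1 Hz, where the main fit called 15 and 1. In the same order, these settings called 6, 6, and 5 higher at 4 Hz, 7, 7, and 2 lower at 4 against 1 Hz, and 7, 7, and 4 lower at 10 against 4 Hz. At 10 against 4 Hz, 4 were higher with total count scaling, 4 with log2(TPM + 0.1), and 1 with unfiltered log2(TPM + 1). The 1 call at 10 Hz, Mfap5, fell to 0 with no filter, at least 5 CPM (a minimum above its mean of 4.69 CPM), each limma setting, only the 12 libraries, and the replicate block. At 4 against 1 Hz, 1 was higher with DESeq2 and with only the 12 libraries, 2 were lower with only the 12 libraries, and 6 with an adjusted p alone. Apart from members left out by a filter, the cause of these differences was not tested. Total count scaling shifted the median of all genes at 4 Hz by -0.11 and gave 12 higher and 2 lower at 1 Hz and 9 and 6 at 4 Hz. Over all 13318 genes it called 2537 at 1 Hz and 2833 at 4 Hz, with 37.1% and 35.7% of them higher.

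Leaving out 1 library gave 12 to 15 members higher and 0 to 2 lower at 1 Hz, 9 to 11 and 3 to 6 at 4 Hz, 0 to 1 and 0 to 0 at 10 Hz, 0 to 1 and 0 to 3 at 4 against 1 Hz, 0 to 0 and 13 to 17 at 10 against 1 Hz, and 2 to 4 and 7 to 11 at 10 against 4 Hz. Same-numbered libraries did not deviate together (correlation -0.18 to 0.36, median 0.02, over 36 pairs), so the numbers were not taken as pairs, and the replicate block gave 15 higher and 1 lower at 1 Hz, 11 and 6 at 4 Hz, and 0 at 10 Hz. Depth limits the 6 untested members and the genes of few CPM.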
